A study of Mus musculus with 44 samples.

Results

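The genes described here are 37 mouse genes tied to activating transcription factor 4 (ATF4) and to the amino acid arm of the integrated stress response. They were taken by symbol from a list of names that was drawn up with earlier results of these data known, and all 37 were found in both deposited gene tables, which hold 24218 symbols in all. Their RNA was measured in ovarian follicles of wild-type CD-1 mice, an outbred strain, after exposure to PFNA (perfluorononanoic acid, a fluorinated surfactant of the PFAS class) in each of 2 windows. In the window of follicle maturation driven by gonadotropin, 11 control libraries (DMSO, the solvent) were compared with 10 PFNA libraries. In the window of ovulation, all follicles received hCG (human chorionic gonadotropin, the trigger of ovulation), and 12 controls (hCG alone) were compared with 11 libraries given hCG and PFNA. Dose, exposure time and the number of follicles per library are not given in the sources used here. The labels do not say whether replicates came from separate animals, so p-values measure the spread between these libraries only.

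When eIF2 alpha is phosphorylated by one of its kinases, general translation slows while the messenger RNA of ATF4 is translated better through its upstream open reading frames. ATF4 then pairs with C/EBP proteins on a composite DNA element, the CARE, and raises transcription of genes for amino acid uptake, serine and asparagine synthesis, mitochondrial one-carbon metabolism, transfer RNA charging and feedback control of the response. Because ATF4 is largely set by translation and protein turnover, the level of its own messenger RNA can stay flat while its target genes change. In the follicle, amino acids and glutathione pass between granulosa cells and the oocyte.

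The promoter sequences show the element that part of these genes share. RefSeq promoter windows on build GRCm38.p6, each running from 250 bases before to 50 bases after a transcription start, were available for 32 of the 37 genes. The CARE was searched as TGATGNAA on both strands, where N is any base, so that it reads TTNCATCA on the opposite strand. It was present in 11 of the 32 genes, or 34.4%, and in 4.51% of all 27025 genes with such a window. The longer palindrome TGACGTCA, the cyclic AMP response element, was present in 1 of the 32, Ppp1r15a, and in 2.03% of all genes. A match describes the letters of the window and is not a measured binding site.

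Printed here, 5′ to 3′ on the strand of the gene and with the match in capitals, are the 6 members that hold a CARE and rose in both windows, followed by Slc7a11. Slc7a11 holds 2 matches, fell in the ovulation window and was not tested in the maturation window. Asns (chr6:7693210-7693278), Slc1a4 (chr11:20332700-20332727), Trib3 (chr2:152344029-152344056) and Slc7a11 (chr3:50443614-50443725) lie on the minus strand, and Chac1 (chr2:119351003-119351102), Pck2 (chr14:55540117-55540216) and Jdp2 (chr12:85599337-85599415) on the plus strand.
Asns: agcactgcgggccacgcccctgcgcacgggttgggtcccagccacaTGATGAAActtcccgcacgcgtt
Chac1: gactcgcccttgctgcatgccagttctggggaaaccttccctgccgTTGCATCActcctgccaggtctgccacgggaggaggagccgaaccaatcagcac
Jdp2: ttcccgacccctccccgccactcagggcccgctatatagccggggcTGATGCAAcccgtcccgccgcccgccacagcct
Pck2: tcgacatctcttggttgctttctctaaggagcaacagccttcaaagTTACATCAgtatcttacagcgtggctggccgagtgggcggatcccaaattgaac
Slc1a4: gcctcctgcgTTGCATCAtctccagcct
Trib3: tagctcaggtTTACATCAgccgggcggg
Slc7a11: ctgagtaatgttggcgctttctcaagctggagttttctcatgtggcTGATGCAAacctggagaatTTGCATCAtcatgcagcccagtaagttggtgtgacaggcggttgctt
The first base of the match stood 23 bases before the RefSeq start of the window in Asns, 33 in Jdp2, 103 in Pck2 and 193 in Chac1. In Slc1a4 the match began 4 bases before the start and ran across it, and in Trib3 it began at base 15 of the transcript. The 2 matches of Slc7a11 began 66 and 47 bases before its start and lie on opposite strands. The gene models of GENCODE M21 (GRCm38) start elsewhere for some of these genes. Jdp2 starts at 85599027 and Asns at 7693254 there, so both matches lie inside those models. Trib3 starts at 152344032 there, so its match lies before that start. The other members with a match were Fgf21, Nupr1, Pycr1 and Vldlr.

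The maturation table is in TPM (transcript abundance per length of transcript, scaled to a fixed total in each library), so the reads behind a value are unknown. The ovulation table holds estimated counts, with 11.96, 14.1 and 16.05 per control library and 10.6, 14.8 and 19.5 per PFNA library in units of 1e+06 counts (lowest, median and highest), and its levels are given as CPM (counts scaled to a fixed library total, not corrected for length). Of 13712 genes tested in the maturation window, limma called 29.4% (4030 genes) at an adjusted p under 0.05, 13.3% higher and 16.1% lower with PFNA. When TPM were rescaled without 7 genes resembling mitochondrial transcripts, an alternative chosen after seeing the data, 2725 genes were called higher and 1878 lower, in place of 1824 and 2206. Of 13441 genes tested in the ovulation window, edgeR's quasi-likelihood test called 73.2% (9837 genes), 38% higher and 35.2% lower. Counts of members are given beside these shares.

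Markers of the oocyte moved with PFNA. In the maturation window the summed level of 22 oocyte markers was 257, 372 and 416 TPM in controls (lowest, median and highest) and 13.2, 20.03 and 595 TPM with PFNA, and 17 of the 18 tested fell. PFNA replicates 1, 2 and 10 kept 264, 209 and 595 TPM, against 13.2 to 33.5 TPM in the remaining 7. In the ovulation window the same sum was 150.0, 183 and 634 CPM in controls and 66.9, 449 and 801 CPM with PFNA, and 10 of 20 tested markers rose. In bulk follicles, fewer oocytes and less RNA per oocyte cannot be told apart. Granulosa markers, which define the follicle wall, were high in every library, at 17851 to 72060 TPM and 17285 to 26006 CPM in sum. Of these 14 markers, 7 fell and 1 rose in the maturation window, and 3 fell and 10 rose in the ovulation window. Theca markers were split, with 1 of 10 rising and 1 falling in the maturation window and 6 of 11 rising and 3 falling in the ovulation window. In the ovulation window 6 of 7 endothelial markers, 2 of 7 leukocyte markers and 2 of 2 surface epithelium markers tested rose, and in the maturation window 1 of 2 leukocyte markers did. Red blood cell markers were too low to test. Among the leukocyte markers, Cd3e stood at 153 to 656 CPM in every ovulation PFNA library and at no more than 0.507 CPM in every control, while Ptprc, the pan-leukocyte marker, stayed at or below 6.02 CPM in all 23 libraries. Cd3e passed the filter on low counts through its PFNA libraries, so its place among the 2 leukocyte markers that rose there is a description only. The same holds for the oocyte marker Ddx4, among the 10 that rose in the ovulation window. Nlrp5, among the 17 oocyte markers that fell in the maturation window, passed the filter there through its controls, so its place is a description too. The part of these markers in the results below was not tested, apart from fits with the oocyte marker sum as a covariate, which are cited where they end a call. In the maturation window that sum largely went with exposure, at 13.2 to 33.5 TPM in 7 of 10 PFNA libraries and at least 257 TPM in every control. A call lost in that fit therefore cannot separate the 2.

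In the maturation window 12 of the 36 members tested rose and 3 fell, while 21 did not pass the test. In the ovulation window 26 of 36 rose and 8 fell, and only Atf4 and Nupr1 did not pass by edgeR. The median log2 fold change of the members was 0.079 in the maturation window, beside 0.023 over all genes tested, and 0.93 in the ovulation window, beside 0.039. At least 2-fold higher were 4 members in the maturation window, where 0.963% of all genes were, and 18 members in the ovulation window, where 18.1% were. In the latter 5 members were at least 2-fold lower, beside 9.02% of all genes. Slc7a11 was below the expression filter in the maturation window and Fgf21 in the ovulation window. Fgf21 (among the 12, and among the 4) in the maturation window and Gdf15 (among the 26, and among the 18) in the ovulation window passed the filter through their PFNA libraries, so their places in these counts are a description only. Cth, among the 3 that fell, passed the maturation filter through its controls, so its place is a description too.

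**Figure D1:**
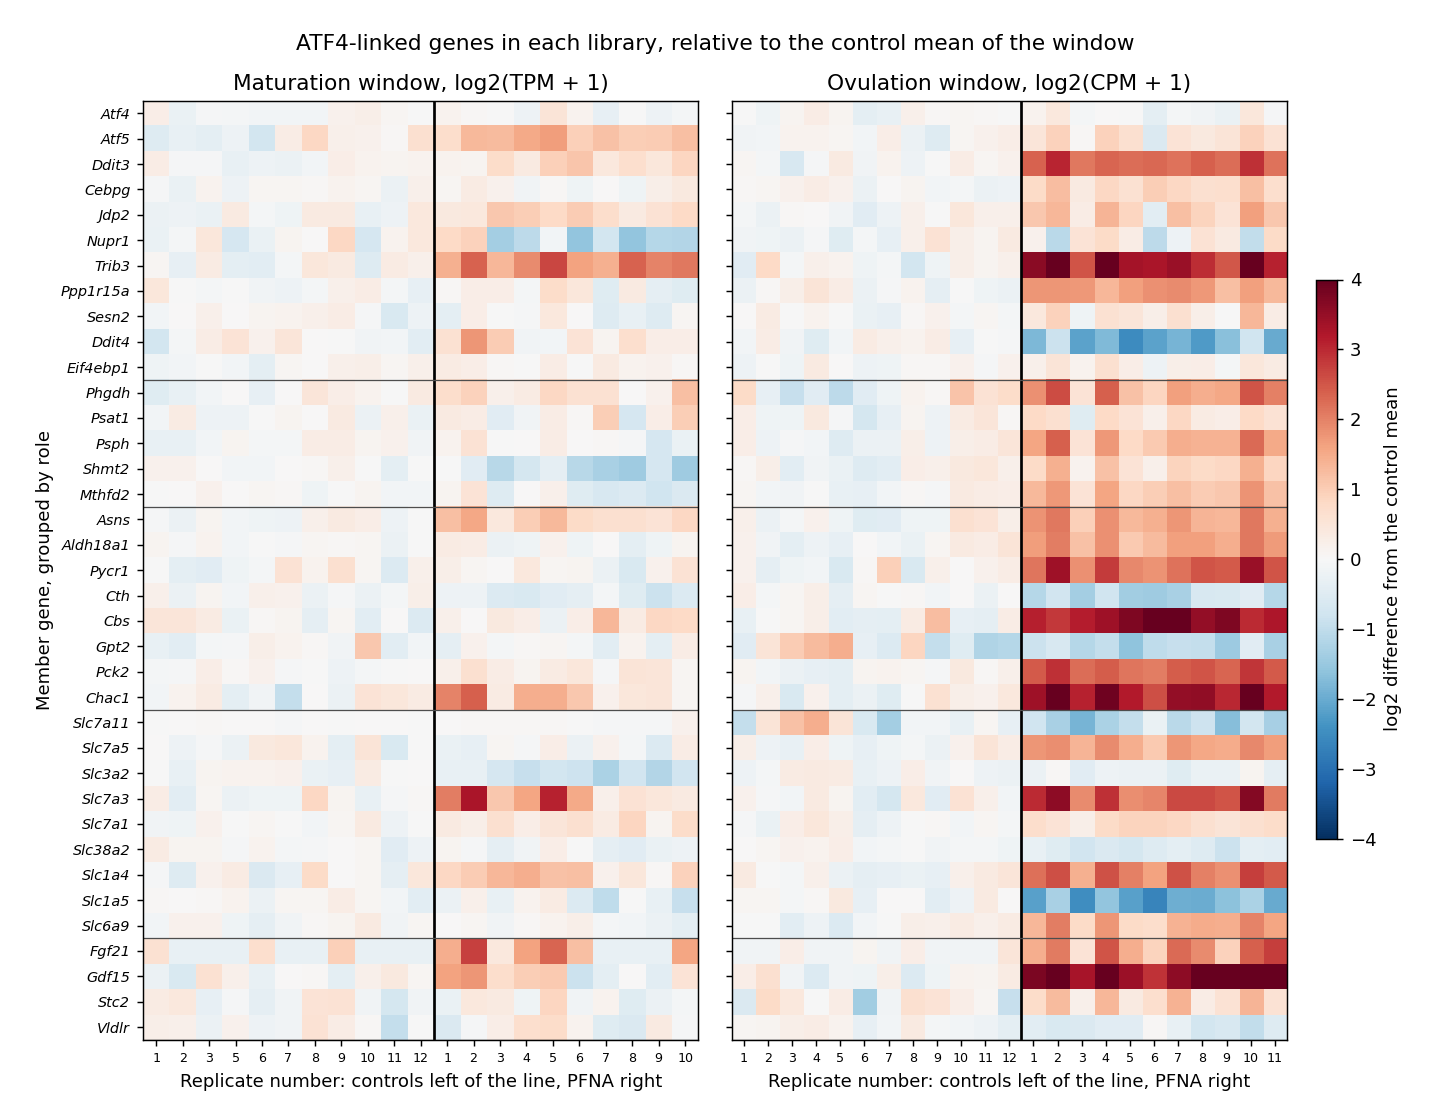
Heat map of the 37 genes (rows, grouped by role) in each library (columns), as the difference from the control mean of the window, on log2(TPM + 1) at left and log2(CPM + 1) at right; controls are left of the vertical line. Trib3, Asns and Atf5 are red across the PFNA libraries of the maturation window, and the ovulation window shows red for 26 genes that rose beside 8 that fell, such as Ddit4 and Slc1a5.

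With both windows set side by side, 35 members were tested in each. Of these, 14 were called in the maturation window, and all 14 were also called in the ovulation window, which is 100% of the first set and 42.4% of the 33 called in the second. Gdf15 is among the 33 and Cth among the 14, with their limits above. Over all 11215 genes tested in both windows, 24.8% were called in both, and the same shares were 75.5% and 33.6%. Both higher were 11 members: Atf5, Ddit3, Jdp2, Trib3, Phgdh, Asns, Pck2, Chac1, Slc7a3, Slc7a1 and Slc1a4. That is 31.4% of the members, where 6.06% of all genes were higher in both. Cth and Slc3a2 were lower in both windows, and Shmt2 was lower in the maturation window and higher in the ovulation window. The windows share no libraries.

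Among the signalling factors, the Atf4 messenger RNA itself did not pass in either window. Atf4 (chr15:80255184-80257541 on GRCm38) had 881, 1037 and 1273 TPM in the maturation controls (lowest, median and highest) and 856, 1059 and 1516 TPM with PFNA. Its log2 fold change was 0.0019 (95% interval -0.18 to 0.18, limma adjusted p = 0.989). In the ovulation window it stood at 324, 437 and 519 CPM in controls and 325, 409 and 579.8 CPM with PFNA, with a log2 fold change of 0.011 (95% interval -0.18 to 0.20, edgeR adjusted p = 0.921). The groups overlapped almost entirely in both windows, and both intervals leave out changes beyond about 0.20 on the log2 scale in either direction. The relative Atf5 and Ddit3 rose in both windows. Atf5, a bZIP factor whose translation is controlled like that of ATF4, had 46.9, 81.7 and 141 TPM in the maturation controls and 131, 181 and 255 TPM with PFNA. In that window 9 of 10 PFNA libraries lay above every control, and the level rose 2.26-fold (log2 fold change 1.18 ± 0.17 (SE), limma adjusted p = 2.96e-05). In the ovulation window Atf5 had 67, 101 and 114 CPM in controls and 63.5, 141 and 181 CPM with PFNA, so the groups overlapped and the rise was 1.45-fold (log2 fold change 0.53 ± 0.13 (SE), edgeR adjusted p = 0.000697).

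Ddit3, which encodes CHOP, a bZIP partner that promotes cell death under lasting stress, had 14.1, 16.8 and 21.6 TPM in the maturation controls and 18.9, 26.4 and 38.2 TPM with PFNA. The groups overlapped at their edges, with 8 of 10 PFNA libraries above every control, and the rise was 1.5-fold (log2 fold change 0.59 ± 0.12 (SE), limma adjusted p = 0.000737). After hCG Ddit3 had 2.86, 5.13 and 6.66 CPM in controls and 25.2, 28.3 and 49.1 CPM with PFNA. Every PFNA library was above every control there, and the rise was 6.12-fold (log2 fold change 2.61 ± 0.14 (SE), edgeR adjusted p = 1.26e-14). Jdp2, a bZIP repressor of AP-1 and ATF sites, had 1.31, 1.5 and 2.77 TPM and 2.63, 3.81 and 5.01 TPM in the maturation controls and PFNA libraries, a rise of 1.64-fold (log2 fold change 0.71 ± 0.13 (SE), limma adjusted p = 0.000251). During ovulation it had 10.6, 15.1 and 21 CPM and 11, 32.5 and 48.5 CPM, a rise of 2.02-fold (log2 fold change 1.02 ± 0.17 (SE), edgeR adjusted p = 8.96e-06), where PFNA replicates 3 and 6 lay within the control range. Cebpg, the C/EBP protein that pairs with ATF4, rose 1.77-fold in the ovulation window (edgeR adjusted p = 1.21e-08) with all 11 PFNA libraries above every control, and did not pass in the maturation window (limma adjusted p = 0.496). With the oocyte marker sum as a covariate, the maturation log2 differences of Ddit3 and Jdp2 were 0.45 and 0.64, and their calls were lost (limma adjusted p = 0.118 and 0.054).

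Trib3, a pseudokinase that is induced by ATF4 and CHOP and holds both back, gave the largest log2 fold change of any member in the maturation window on log2(TPM + 1), a scale that understates low genes such as Slc7a3 and Fgf21. It had 2.49, 4.27 and 5.81 TPM in controls and 11.5, 18.3 and 30.7 TPM with PFNA (log2 fold change 1.92 ± 0.17 (SE), limma adjusted p = 3.17e-07). After hCG it had 0.96, 2.26 and 4.68 CPM in controls and 17, 31.6 and 99.98 CPM with PFNA, a rise of 18.1-fold (log2 fold change 4.18 ± 0.32 (SE), edgeR adjusted p = 3.42e-11). Neither window had any overlap between the groups, and PFNA replicates 2 and 10 of the ovulation window stood far above the other 9. Ppp1r15a, the phosphatase subunit GADD34 that reverses eIF2 alpha phosphorylation, had 62.6, 78.7 and 116 CPM in the ovulation controls and 185, 269.7 and 297 CPM with PFNA. Those groups did not overlap either, with a rise of 3.09-fold (log2 fold change 1.63 ± 0.10 (SE), edgeR adjusted p = 3.42e-13), whereas in the maturation window its log2 difference was 0.074 (limma adjusted p = 0.725).

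Ddit4, or REDD1, an inhibitor of the growth kinase mTORC1, was the one signalling factor that fell in the ovulation window. It had 38.6, 53.3 and 67.9 CPM in controls and 8.71, 14.3 and 30.7 CPM with PFNA. Every PFNA library was below every control, and Ddit4 fell 3.43-fold (log2 fold change -1.78 ± 0.18 (SE), edgeR adjusted p = 3.41e-09). In the maturation window it had 92.8, 155 and 229 TPM and 142, 207 and 538 TPM, with a log2 difference of 0.50 that missed the threshold (limma adjusted p = 0.0648). It was called higher by limma without control replicate 5, PFNA replicate 4 or PFNA replicate 5 (0.56 to 0.57), and with TPM rescaled without the genes resembling mitochondrial transcripts (0.56, limma adjusted p = 0.0342). Sesn2, a leucine sensor that also restrains mTORC1, rose 1.43-fold in the ovulation window (edgeR adjusted p = 0.000999) with 6 of 11 PFNA libraries above every control. Eif4ebp1, the translation repressor 4E-BP1, rose 1.2-fold there (edgeR adjusted p = 0.00908), the smallest rise among the members called higher in that window. Neither passed in the maturation window, although with the rescaled TPM Eif4ebp1 was called higher there (log2 difference 0.22, limma adjusted p = 0.0175).

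Nupr1, a small stress-induced chromatin protein, did not pass in either window, yet its libraries were split in both. In the maturation window the controls had 5.07, 8.74 and 16.2 TPM, PFNA replicates 1 and 2 had 15.8 and 17.6 TPM, and the remaining 8 ranged from 2.23 to 7.92 TPM. The log2 difference was -0.70 (limma adjusted p = 0.0823), and without those 2 libraries it was -1.09 (limma adjusted p = 0.000396). Without replicate 1 alone it was -0.87, and without replicate 2 alone -0.88, both called lower by limma. During ovulation the controls had 108, 146 and 226 CPM. PFNA replicates 2, 6 and 10 had 71.4, 74.2 and 76.3 CPM, below every control, and the remaining 8 lay between 134 and 262 CPM.

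**Figure D2:**
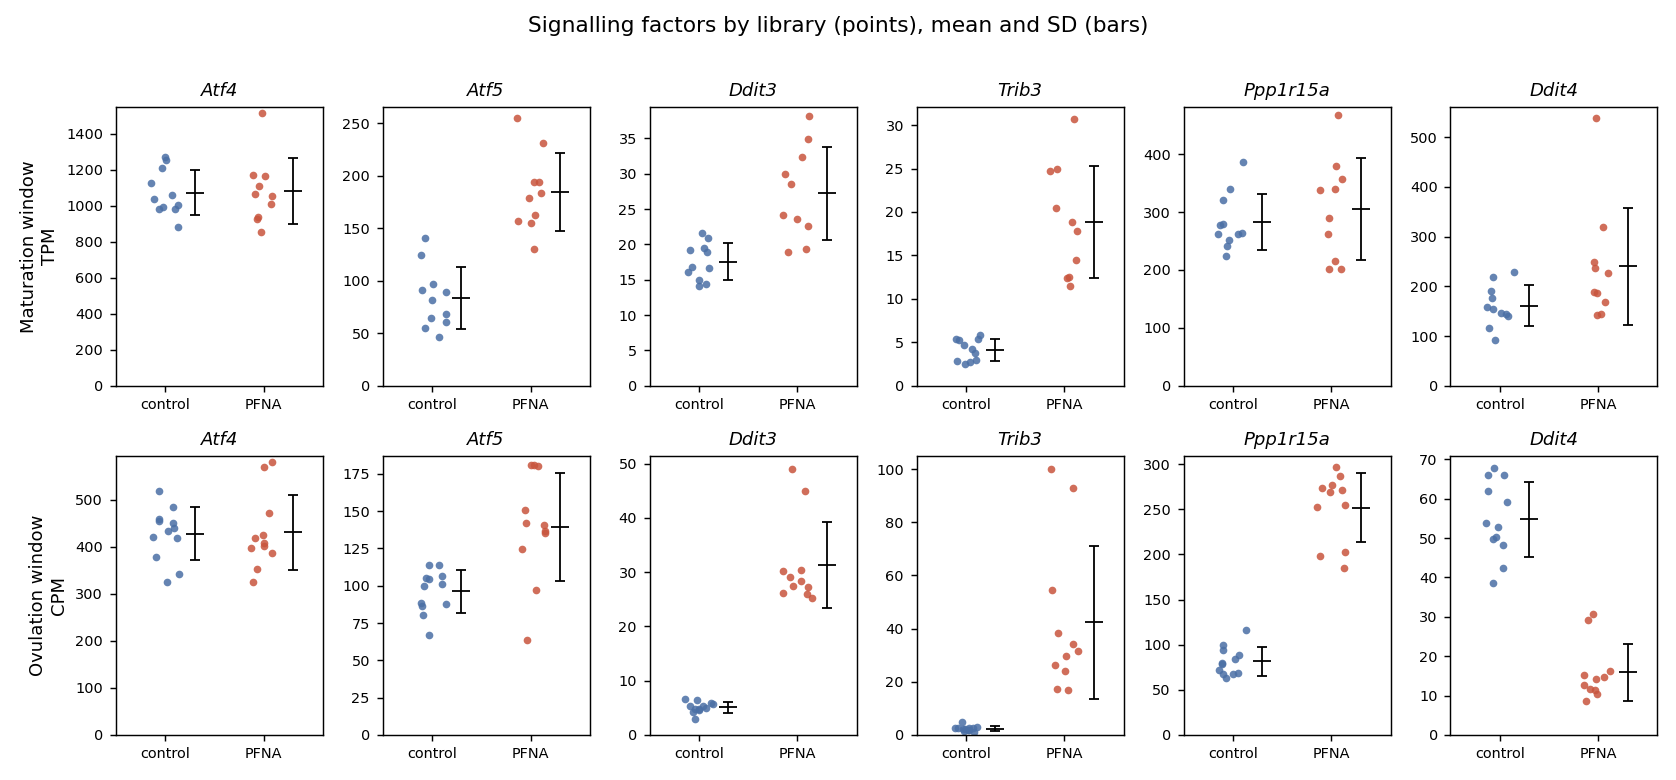
Levels of 6 signalling genes in each library (points), with the mean and SD of each group (bars), in TPM for the maturation window (top) and CPM for the ovulation window (bottom), on linear axes from 0. Atf4 overlaps between groups in both windows, Trib3 is separated in both, and Ddit4 is separated in the ovulation window, with PFNA lower.

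The serine and one-carbon enzymes rose together in the ovulation window, where 5 of 5 were called higher, and moved in both directions in the maturation window, where Phgdh rose, Shmt2 fell and 3 did not pass. Phgdh catalyses the first step from glycolysis to serine. It had 6.82, 10.01 and 14.2 TPM in the maturation controls and 10.1, 15.7 and 24.3 TPM with PFNA, with 6 of 10 PFNA libraries above every control (log2 fold change 0.56 ± 0.14 (SE), limma adjusted p = 0.00501). After hCG it had 15.9, 32.6 and 77.3 CPM in controls and 50.7, 109.7 and 212 CPM with PFNA. There 9 of 11 PFNA libraries lay above every control, and the rise was 3.24-fold (log2 fold change 1.69 ± 0.27 (SE), edgeR adjusted p = 5.69e-06). The controls themselves spread widely, since replicate 10 had 77.3 CPM and replicate 5 had 15.9 CPM. Psat1, the aminotransferase of the next step, rose 1.41-fold in the ovulation window (edgeR adjusted p = 0.00268), with PFNA replicate 3 among the lowest controls at 66.5 CPM. Psph, the phosphatase that completes serine, had 6.31, 9.03 and 13.8 CPM in the ovulation controls and 14.3, 28.1 and 54.6 CPM with PFNA. These groups did not overlap, and Psph rose 3.1-fold (log2 fold change 1.63 ± 0.19 (SE), edgeR adjusted p = 1.98e-08). In the maturation window Psat1 and Psph had log2 differences of 0.20 and 0.0093 (limma adjusted p = 0.402 and 0.964).

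The mitochondrial enzymes that act on serine and its one-carbon unit rose in the ovulation window, while in the maturation window Shmt2 fell and Mthfd2 did not pass. Shmt2, which splits serine into glycine and a one-carbon unit in mitochondria, had 202, 264 and 299 TPM in the maturation controls and 96.9, 141 and 260.0 TPM with PFNA. It fell 1.8-fold there (log2 fold change -0.85 ± 0.15 (SE), limma adjusted p = 0.00022), and PFNA replicates 1, 5 and 2, with 260.0, 205 and 193 TPM, were the highest of the PFNA libraries. With the oocyte marker sum as a covariate the log2 difference was -0.69 and the call was lost (limma adjusted p = 0.0678). During ovulation Shmt2 had 68.9, 107 and 135 CPM in controls and 110.0, 177 and 268 CPM with PFNA, where 9 of 11 PFNA libraries lay above every control and the rise was 1.8-fold (log2 fold change 0.85 ± 0.15 (SE), edgeR adjusted p = 1.8e-05). Mthfd2, the mitochondrial methylenetetrahydrofolate dehydrogenase, had 50.1, 60.9 and 80.8 CPM in the ovulation controls and 92.5, 142 and 222 CPM with PFNA. No library overlapped, and the rise was 2.38-fold (log2 fold change 1.25 ± 0.12 (SE), edgeR adjusted p = 1.82e-09). During maturation its log2 difference was -0.27 (limma adjusted p = 0.136). Without PFNA replicate 2, which had 27.8 TPM, the difference was -0.36 and was called lower by limma.

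**Figure D3:**
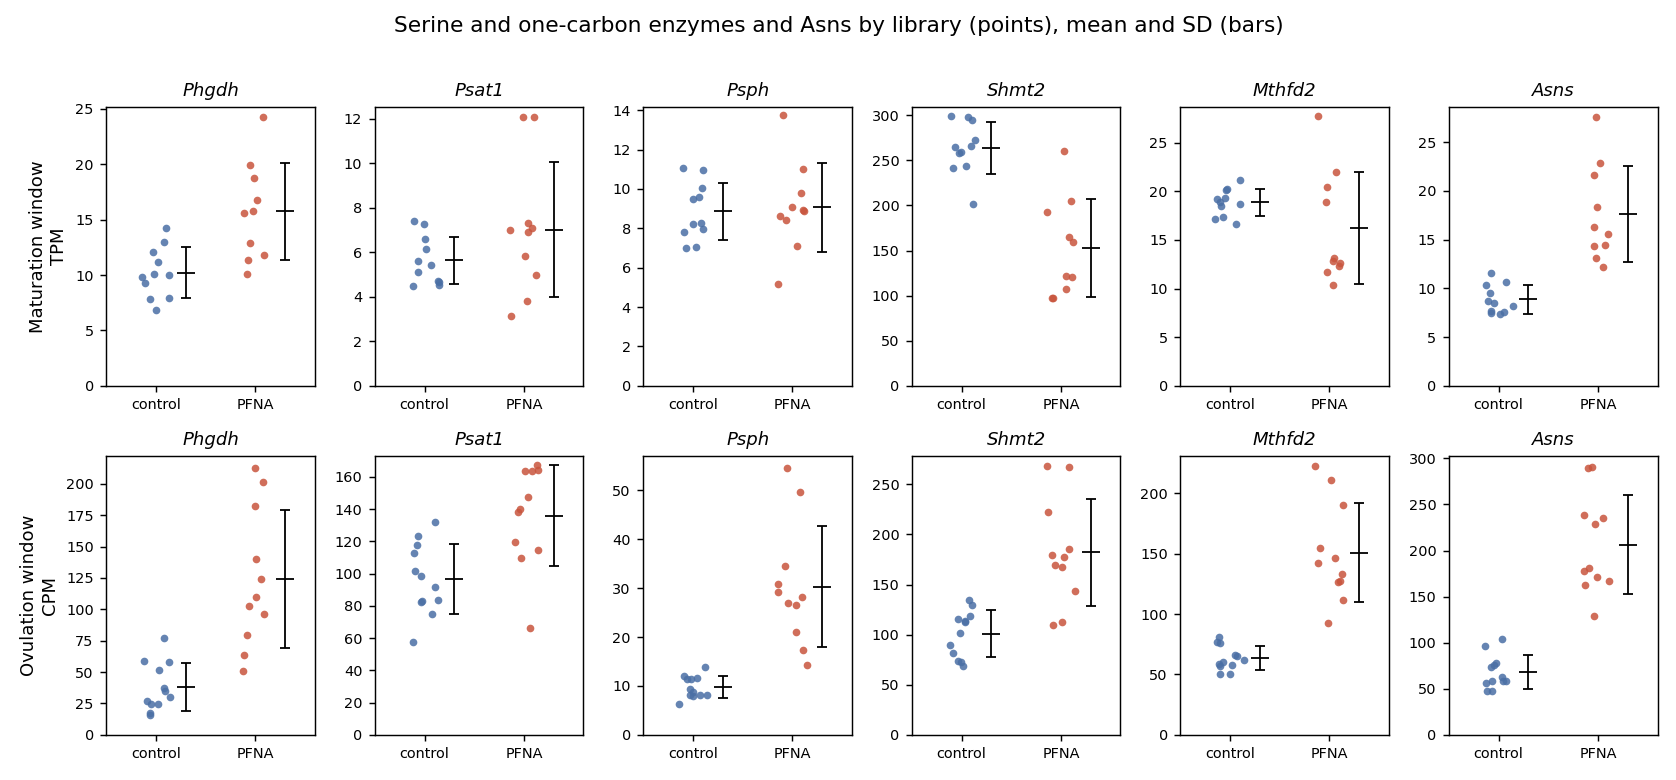
Levels of 5 serine and one-carbon enzymes and of Asns in each library (points), with the mean and SD of each group (bars), in TPM (maturation window, top) and CPM (ovulation window, bottom), on linear axes from 0. Asns is separated between groups in both windows, while Shmt2 lies lower with PFNA in the maturation window and higher in the ovulation window.

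Of the 8 other amino acid and glutathione enzymes, 3 rose and 1 fell in the maturation window, and 6 rose and 2 fell in the ovulation window. The 1 that fell in the maturation window was Cth, with its limit above. Asns makes asparagine and is a classic readout of amino acid limitation. It had 7.33, 8.53 and 11.5 TPM in the maturation controls and 12.1, 15.9 and 27.6 TPM with PFNA, with no overlap (log2 fold change 0.89 ± 0.12 (SE), limma adjusted p = 2.45e-05). Together with Trib3 it was one of 2 members with every PFNA library above every control in that window, where 0.489% of all genes were. After hCG Asns had 47.3, 60.9 and 104 CPM in controls and 129, 181 and 290.3 CPM with PFNA, again without overlap, a rise of 3.03-fold (log2 fold change 1.6 ± 0.15 (SE), edgeR adjusted p = 5.73e-10). In that window 17 members had every PFNA library above every control, beside 11.9% of all genes, and 4 had every one below, beside 14.1%. Gdf15, which passed the filter through its PFNA libraries, is among the 17, where its place is a description only.

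The enzymes of proline synthesis rose in the ovulation window and did not pass in the maturation window. Aldh18a1, which starts proline synthesis from glutamate, had 36.2, 46.4 and 69 CPM in controls and 99.1, 151 and 212 CPM with PFNA there, a rise of 3.09-fold (log2 fold change 1.63 ± 0.13 (SE), edgeR adjusted p = 3.09e-11). Pycr1, the last enzyme of that route, had 0.8, 1.82 and 4.29 CPM and 8.64, 14.2 and 29.5 CPM, a rise of 8.11-fold (log2 fold change 3.02 ± 0.27 (SE), edgeR adjusted p = 1.98e-10). Neither gene had overlapping groups. Their maturation log2 differences were -0.023 and 0.081 (limma adjusted p = 0.858 and 0.73), and for both genes the difference between the windows passed the test given below.

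The transsulfuration enzymes Cbs and Cth, which turn homocysteine into cystathionine and then cysteine, went in opposite directions in the ovulation window. Cbs had 1.99, 2.63 and 8.45 CPM in controls and 27.8, 41.4 and 80.6 CPM with PFNA, without overlap, a rise of 14-fold (log2 fold change 3.8 ± 0.24 (SE), edgeR adjusted p = 7.93e-13). Cth had 21.9, 28.7 and 34.7 CPM in controls and 10.1, 12.5 and 20.7 CPM with PFNA, with every PFNA library below every control, and fell 2.02-fold (log2 fold change -1.01 ± 0.12 (SE), edgeR adjusted p = 4.96e-08). During maturation Cth fell by 0.44 on the log2 scale, with medians of 1.35 TPM in controls and 0.773 TPM with PFNA (limma adjusted p = 0.00507). Its PFNA mean of 0.833 TPM lay under the filter on low values, which Cth passed through its controls. With the oocyte covariate the log2 difference was -0.38 and the call was lost (limma adjusted p = 0.166). Cbs did not pass there (log2 difference 0.42, limma adjusted p = 0.0672), and PFNA replicates 7, 9 and 10 alone exceeded every control. Without PFNA replicate 2 or 5, or control replicate 1 or 2, Cbs was called higher by limma, at 0.46 to 0.49.

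Pck2, the mitochondrial phosphoenolpyruvate carboxykinase, and Chac1, which degrades glutathione, rose in both windows. Pck2 had 87.3, 99.6 and 122 TPM in the maturation controls and 98.4, 127 and 157 TPM with PFNA, a rise of 1.24-fold with 6 of 10 PFNA libraries above every control (log2 fold change 0.31 ± 0.077 (SE), limma adjusted p = 0.00463). During ovulation it had 33.4, 46.6 and 59 CPM and 188, 245 and 343 CPM, far from overlapping. Chac1 had 0.857, 2.66 and 4.33 TPM in the maturation controls and 2.81, 5.35 and 17.8 TPM with PFNA (log2 fold change 0.99 ± 0.27 (SE), limma adjusted p = 0.00778). PFNA replicates 1 and 2 were its highest there, with 13.2 and 17.8 TPM, and replicates 3, 7, 8, 9 and 10 lay within the control range. After hCG Chac1 had 0.635, 1.61 and 2.77 CPM in controls and 13.8, 25.2 and 71.7 CPM with PFNA, without overlap, a rise of 20.5-fold (log2 fold change 4.36 ± 0.30 (SE), edgeR adjusted p = 3.43e-12). With the oocyte covariate the maturation log2 differences of Pck2 and Chac1 were 0.28 and 1.28, and their calls were lost (limma adjusted p = 0.146 and 0.0602).

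Gpt2, a mitochondrial alanine aminotransferase, was the other enzyme that fell in the ovulation window. It had 41.9, 74.7 and 273 CPM in controls and 31.3, 49.7 and 71.4 CPM with PFNA and fell 2.47-fold (log2 fold change -1.3 ± 0.30 (SE), edgeR adjusted p = 0.000415). Control replicates 2, 3, 4, 5 and 8 had 139.7 to 273 CPM, while the other 7 controls lay between 41.9 and 78.1 CPM and overlapped the PFNA libraries. During maturation its log2 difference was -0.064 (limma adjusted p = 0.779).

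The 9 amino acid transporters did not move as one group. During maturation Slc7a3, Slc7a1 and Slc1a4 rose, Slc3a2 fell and 4 did not pass. During ovulation Slc7a5, Slc7a3, Slc7a1, Slc1a4 and Slc6a9 rose, and Slc7a11, Slc3a2, Slc38a2 and Slc1a5 fell. Slc7a3, a carrier of arginine and lysine, had 0.478, 0.913 and 2.46 TPM in the maturation controls and 1.27, 3.88 and 17.9 TPM with PFNA (log2 fold change 1.42 ± 0.33 (SE), limma adjusted p = 0.00301). PFNA replicates 2, 5 and 1 were the highest at 17.9, 15.6 and 7.21 TPM, and replicates 7, 8, 9 and 10 lay within the control range. After hCG it had 1.92, 3.8 and 6.01 CPM in controls and 16, 28.3 and 58.8 CPM with PFNA, without overlap, a rise of 7.94-fold (log2 fold change 2.99 ± 0.24 (SE), edgeR adjusted p = 5.38e-11). Its relative Slc7a1 rose 1.38-fold in the maturation window (limma adjusted p = 0.000679) and 1.59-fold in the ovulation window (edgeR adjusted p = 3.29e-07).

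Slc1a4 and Slc1a5, related exchangers of small neutral amino acids, went apart. Slc1a4 (ASCT1, a carrier of serine and alanine) had 2.08, 3.56 and 6.82 TPM in the maturation controls and 3.73, 8.01 and 11.5 TPM with PFNA, with 7 of 10 PFNA libraries above every control (log2 fold change 0.86 ± 0.19 (SE), limma adjusted p = 0.00168). During ovulation it had 15.5, 19.3 and 28.4 CPM and 55.5, 94.9 and 143 CPM, without overlap, a rise of 4.81-fold (log2 fold change 2.26 ± 0.16 (SE), edgeR adjusted p = 2.83e-12). Slc1a5 (ASCT2, a glutamine carrier) had 40.8, 55 and 71.6 CPM in the ovulation controls and 7.98, 12.9 and 22.2 CPM with PFNA. Every PFNA library was below every control, and Slc1a5 fell 3.87-fold (log2 fold change -1.95 ± 0.15 (SE), edgeR adjusted p = 1.9e-11). Its maturation log2 difference was -0.26 (limma adjusted p = 0.188). Slc38a2, the glutamine and alanine carrier SNAT2, fell 1.45-fold in the ovulation window (edgeR adjusted p = 1.9e-07), again with every PFNA library below every control.

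Slc3a2, the heavy chain that brings its light chains to the cell surface, and those light chains also differed. Slc7a5 (LAT1, the leucine carrier) had 87.2, 101 and 156 CPM in the ovulation controls and 226, 352 and 415 CPM with PFNA, without overlap, a rise of 3.07-fold (log2 fold change 1.62 ± 0.11 (SE), edgeR adjusted p = 1.85e-12). Slc7a11 (xCT, which imports cystine) had 149, 353 and 1058 CPM in the ovulation controls and 106, 182 and 319 CPM with PFNA. Those groups overlapped, the controls ranging over 7.09-fold, and Slc7a11 fell 2.39-fold (log2 fold change -1.25 ± 0.27 (SE), edgeR adjusted p = 0.000226). Slc3a2 itself fell 1.71-fold in the maturation window (log2 fold change -0.77 ± 0.11 (SE), limma adjusted p = 4.01e-05) and 1.19-fold in the ovulation window (log2 fold change -0.25 ± 0.093 (SE), edgeR adjusted p = 0.0189). After hCG control replicates 3, 4, 5 and 8 had 1144 to 1208 CPM of Slc3a2 and the other 8 controls 772 to 955 CPM. With the oocyte covariate the log2 differences of Slc3a2 were -0.48 in the maturation window and -0.24 in the ovulation window, and both calls were lost (limma adjusted p = 0.0602, edgeR adjusted p = 0.0566).

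During maturation Slc7a5 had 36.2, 55.2 and 80.5 TPM in controls and 38.4, 53.7 and 68.5 TPM with PFNA and did not pass (limma adjusted p = 0.741). Slc7a11 had 0.0736, 0.103 and 0.134 TPM and 0.0606, 0.119 and 0.225 TPM there and was not tested. The gene models of Slc7a11, a gene on the minus strand, differed between the windows. Its 3′ end lay at 49892526 (maturation) and 50364936 (ovulation) on chromosome 3, so that its low TPM cannot be set against its CPM. Slc6a9 (GLYT1, the glycine carrier) had 27.2, 39.9 and 50.7 CPM in the ovulation controls and 66, 111 and 168 CPM with PFNA, without overlap, a rise of 2.74-fold (log2 fold change 1.45 ± 0.15 (SE), edgeR adjusted p = 6.45e-09). During maturation its log2 difference was -0.044 (limma adjusted p = 0.732).

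**Figure D4:**
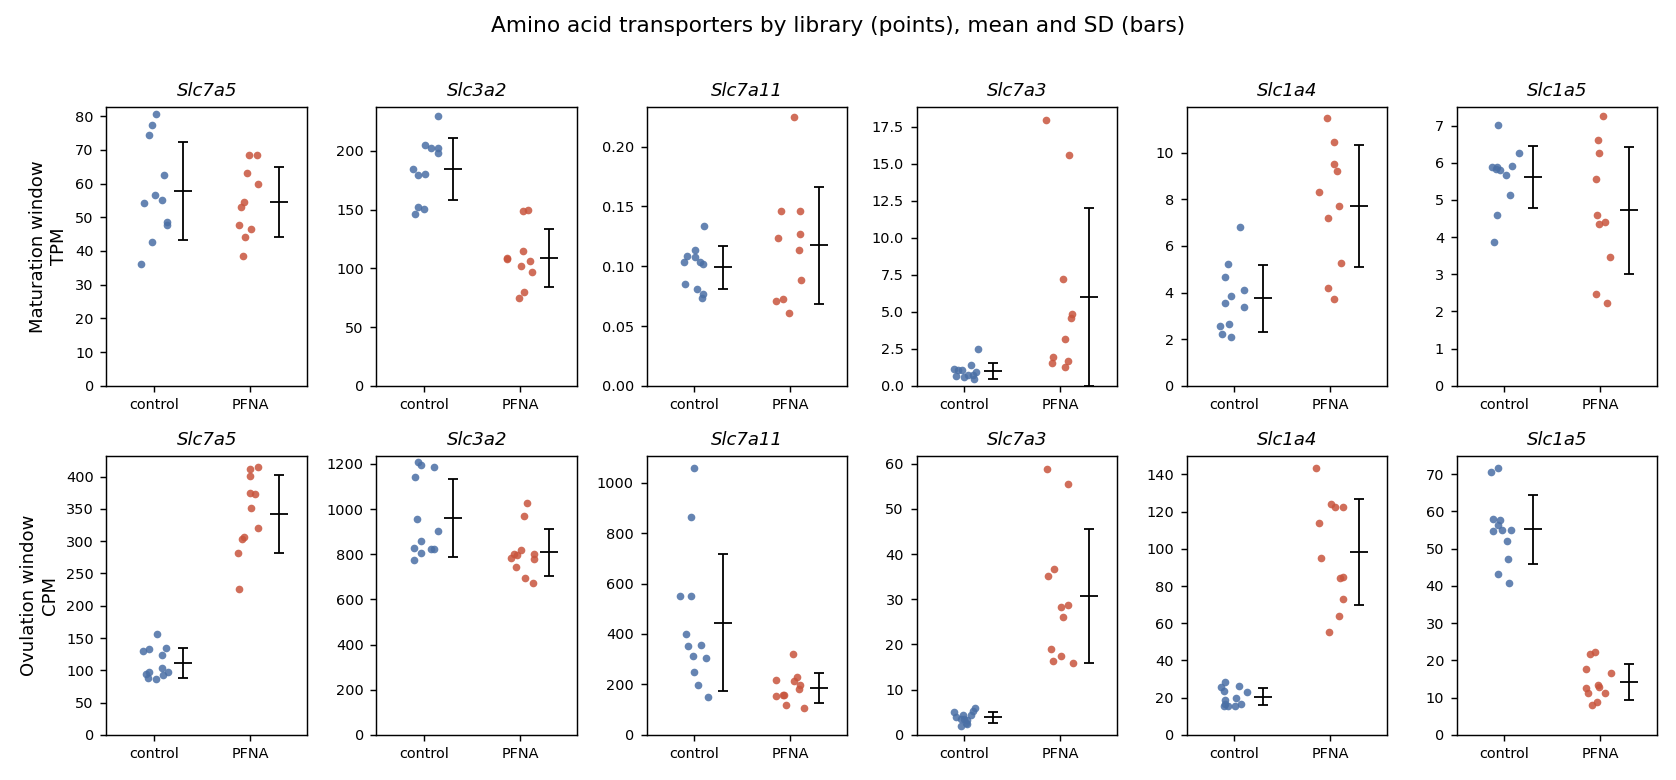
Levels of 6 amino acid transporters in each library (points), with the mean and SD of each group (bars), in TPM (maturation window, top) and CPM (ovulation window, bottom), on linear axes from 0. During ovulation Slc7a5, Slc7a3 and Slc1a4 lie wholly above the controls and Slc1a5 wholly below, while Slc3a2 and Slc7a11 overlap.

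Of the secreted factors and receptor, Gdf15 was near the floor in the ovulation controls and present in every PFNA library there, Stc2 rose and Vldlr fell. Gdf15, a stress cytokine that acts on the hindbrain, had 0, 0.461 and 1.29 CPM in controls, of which 2 of 12 libraries had no count, and 9.95, 23.9 and 45.8 CPM with PFNA. Every PFNA library was above every control. The gene passed the filter on low counts through the PFNA libraries, so its fitted log2 fold change of 5.46 ± 0.35 (SE) is a description and depends on a few counts in the controls. A count of 0 allows up to 0.187 to 0.295 CPM in the control libraries, taking 3 counts as the limit and covering counting error only. During maturation Gdf15 had 2.88, 5.14 and 8.03 TPM in controls and 2.31, 8.15 and 19.1 TPM with PFNA. Replicates 2, 1, 5, 4 and 3 of PFNA exceeded every control, the other 5 lay within or below the control range, and the difference of 0.50 on the log2 scale did not pass (limma adjusted p = 0.184). With the oocyte covariate it was 1.25 (limma adjusted p = 0.0456).

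Fgf21, a hormone of nutrient shortage, was near the limit of detection. In the maturation controls it was listed at 0 in 8 of 11 libraries and at most at 1.35 TPM. With PFNA it was listed at 0 in 3 of 10 libraries, and replicates 2 and 5 were the highest at 7.01 and 5.12 TPM. The gene passed the filter through its PFNA libraries, so its call (log2 fold change 1.04 ± 0.35 (SE), limma adjusted p = 0.0305) supports nothing by itself. It was lost without PFNA replicate 4, 5 or 10 (limma adjusted p = 0.0546, 0.0591 and 0.0528) and with a pseudocount of 0.1 (limma adjusted p = 0.0541). After hCG it had 0 counts in 8 of 12 controls and at most 7 in the others, against 12 to 90 counts in the PFNA libraries, or 0.591 to 6.46 CPM. Every PFNA library there was above every control.

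Stc2, a secreted glycoprotein of calcium and stress handling, rose 1.74-fold in the ovulation window (edgeR adjusted p = 0.00402) with 4 of 11 PFNA libraries above every control. Vldlr, a lipoprotein receptor, fell 1.42-fold there (edgeR adjusted p = 8.17e-05). Their maturation log2 differences were 0.043 and 0.039 (limma adjusted p = 0.876 and 0.897).

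The PFNA effect differed between the windows for most members. The difference between windows was tested as the log2 effect on CPM minus the log2 effect on TPM, with a limma fit per table. It passed in 29 of 35 members, 22 toward a higher effect in the ovulation window and 7 toward a lower one, beside 67.7% of 11215 genes (32% and 35.6% by direction). Higher and lower refer to the signed effect and not to its size. Slc3a2 counts as higher because its fall was smaller (-0.77 and -0.24), and Slc1a5 as lower because its fall was larger (-0.26 and -1.93, maturation and ovulation). The difference was 3.05 ± 0.25 (SE) for Cbs (limma adjusted p = 2.32e-14). For Gdf15, which passed the ovulation filter through its PFNA libraries, it was 3.42 ± 0.34 (SE) as a description. Cth, among the 7, passed the maturation filter through its controls, so its difference is a description too. Pck2, which was called higher in each window, differed by 2.13 ± 0.13 (SE) (limma adjusted p = 6.61e-19). Atf5 was a member called higher in both windows with the smaller effect in the ovulation window, the difference being -0.69 ± 0.21 (SE) (limma adjusted p = 0.00476). The direction of Shmt2 turned, with a difference of 1.67 ± 0.21 (SE) (limma adjusted p = 3.05e-09). Atf4, Jdp2, Nupr1, Eif4ebp1, Psat1 and Slc7a1 did not pass, and the difference for Atf4 was -0.00055 ± 0.13 (SE). Window, unit and table changed together, so these cannot be told apart as the source of a difference in size.

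**Figure D5:**
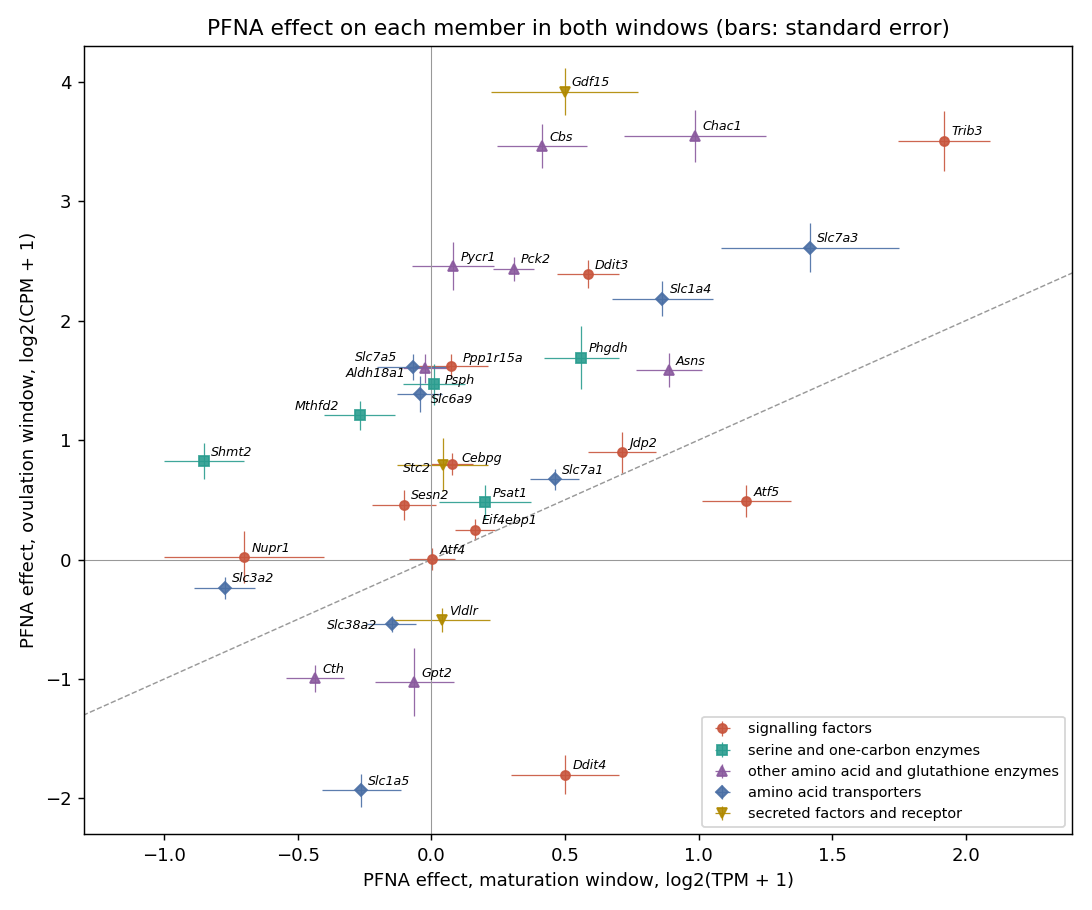
PFNA effect of each of the 35 members tested in both windows, as the log2 difference between groups on TPM + 1 in the maturation window (x axis) and on CPM + 1 in the ovulation window (y axis), with standard errors as bars, colour and symbol by role, and a dashed line of equal effects. Most points lie above the dashed line, Atf4 lies at the origin, Atf5 lies below the line, and Shmt2 lies left of 0 and above 0.

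The libraries of a group did not respond to the same degree. The members used for this were those called higher in these same libraries, so the counts compare libraries and are no support for a rise. Gdf15 is among the 26 members of the ovulation window and Fgf21 among the 12 of the maturation window, with their limits above. Over the 26 members called higher in the ovulation window, the median log2 distance from the control mean ran from 0.85 in PFNA replicate 3 to 2.04 and 2.06 in replicates 2 and 10. Replicates 2 and 10 were the top 2 of 11 PFNA libraries in 17 of the 26 members. The lowest PFNA library was replicate 3 in 12 members and replicate 6 in 9. PFNA replicate 3 was above every control in 17 of the 26 and replicate 6 in 18. The oocyte marker sums of replicates 2, 10, 3 and 6 were 606, 801, 449 and 363 CPM. Over the 12 members called higher in the maturation window, the same median ran from 0.38 in PFNA replicate 7 to 1.22 and 1.23 in replicates 4 and 5. PFNA replicates 5 and 6 were above every control in 12 of 12, and replicates 7, 8 and 9 in 6 of 12. The oocyte marker sums of these 5 libraries all lay between 13.2 and 21.7 TPM. Leaving out PFNA replicates 1 and 2 together gave 12 members higher and 5 lower by limma. Nupr1 and Mthfd2 were then called lower and Cbs was called higher, while Fgf21 fell below the filter.

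Genes around the members were read from lists by function, and their counts stand beside 13.3% higher and 16.1% lower over all genes in the maturation window and 38% and 35.2% in the ovulation window. Of 15 genes for eIF2 alpha kinases and the eIF2 machinery, 3 fell in the maturation window, and 4 rose and 6 fell in the ovulation window. Eif2ak3, the endoplasmic reticulum kinase PERK, was lower in the maturation window (log2 fold change -0.37 ± 0.089 (SE), limma adjusted p = 0.00402) and higher in the ovulation window (0.64 ± 0.099 (SE), edgeR adjusted p = 2.94e-06). Eif2a, an initiation factor separate from the eIF2 complex, and Eif2s2, the beta subunit of eIF2, also rose in the ovulation window (0.75, edgeR adjusted p = 4.58e-11, and 0.53, edgeR adjusted p = 2.63e-08), each with all 11 PFNA libraries above every control. Eif2ak1, the heme-regulated kinase, was lower in the ovulation window (-0.92 ± 0.063 (SE), edgeR adjusted p = 2.15e-12), and Ppp1r15b, the constitutive counterpart of GADD34, fell there too (-0.59, edgeR adjusted p = 1.79e-07). Of 14 other bZIP partners and regulators, 3 of 13 tested rose and 1 fell in the maturation window, and 6 rose and 7 fell in the ovulation window. Jun, a core AP-1 subunit, rose in both (log2 fold change 0.97, limma adjusted p = 0.0129, and 2.68, edgeR adjusted p = 3.13e-20). Atf3, a stress-induced repressor, rose in the ovulation window (3.3, edgeR adjusted p = 1.11e-12), where Trib1 fell (-1.82, edgeR adjusted p = 1.38e-12).

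Of the other one-carbon and glycine enzymes, 2 of 15 rose and 4 fell in the maturation window, and 6 of 16 rose and 7 fell in the ovulation window, shares near those of all genes there. Aldh1l2, the mitochondrial 10-formyltetrahydrofolate dehydrogenase, was higher in both. It had 0.228, 0.505 and 0.998 TPM in the maturation controls and 1.97, 2.25 and 6.02 TPM with PFNA, without overlap. It passed the filter on low values through the PFNA libraries of that window, so this is a description. During ovulation its log2 fold change was 3.15 ± 0.28 (SE, edgeR adjusted p = 5.11e-10). Of the other proline, glutamate and aspartate enzymes, 1 of 15 rose and 1 fell in the maturation window, and 5 of 17 rose and 9 fell in the ovulation window. Glul, which makes glutamine, fell in the ovulation window (-1.77, edgeR adjusted p = 6.16e-09).

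Of the other amino acid transporters, 4 of 13 rose and 6 fell in the maturation window, and 8 of 19 rose and 6 fell in the ovulation window. Slc43a2, among the 4, and Slc38a3, among the 8, passed the filters of those windows through their PFNA libraries. Their places in these counts are a description only. Slc38a3, the glutamine carrier SNAT3, rose in the maturation window (log2 fold change 1.62, limma adjusted p = 4.18e-05). After hCG its libraries had 0.0686 to 1.43 CPM in controls and 17.3 to 202 CPM with PFNA, a description only, since the gene passed the filter on low counts through the PFNA libraries. Slc7a8 (LAT2), another light chain of Slc3a2, fell in both (-1.4, limma adjusted p = 5.14e-06, and -1.66, edgeR adjusted p = 8.7e-11). Of 20 cytosolic aminoacyl-tRNA synthetases, 3 rose and 1 fell in the maturation window, and 12 rose and 3 fell in the ovulation window. Nars, which charges the asparagine transfer RNA, rose in both (0.30, limma adjusted p = 0.00092, and 1.94, edgeR adjusted p = 2.72e-14). Of 21 other stress genes linked to ATF4, 4 rose and 2 fell in the maturation window, and 12 rose and 5 fell in the ovulation window, with Herpud1, a protein of endoplasmic reticulum degradation, at 1.87 (edgeR adjusted p = 9.82e-15).

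Members with and without the CARE can be set beside these calls as a description. During maturation 7 of 10 tested members with a CARE rose, Fgf21 with its limit above among them, and 4 of 21 tested members with a window but no CARE rose and 2 fell. The median log2 fold changes were 0.79 and 0.043. During ovulation 7 of 10 with a CARE rose and 2 fell (Slc7a11 and Vldlr), and 16 of 21 without one rose and 4 fell, with medians of 1.93 and 0.82. Gdf15, with its limit above, is among the 16. Over all genes with a window, 54.7% of 300 tested with a CARE and 37.7% of 10318 without one rose in the ovulation window. There 23% with a CARE and 35.8% without one fell. For the maturation window, 17.6% of 238 with a CARE and 14.5% of 9174 without one rose, while 21.01% and 17.99% fell. More genes thus fell than rose in that window, both with and without a CARE.

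Counting leaves some members uncertain, since the use of strand is not given in the sources used here. Ccdc24 on the opposite strand overlaps 27.8% of the exon bases of Slc6a9, Cct6a overlaps 10.4% of Psph, and 7.68% of Jdp2 and 4.11% of Atf5 are overlapped likewise. Phgdh shares at least 10% of its 31-base words with each of 16 other annotated genes or pseudogenes, up to 59.0% with Gm7901, so part of its value could come from reads of those copies.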

How the data were processed

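The 44 libraries were made from poly-A RNA of mouse follicles with random hexamer priming, per the labels' protocols. Partek, Bowtie2 and HISAT2 are named in the submitters' processing notes. Their roles and versions, the build and the use of strand are not given in the sources used here. The values the authors deposited for the maturation window are TPM: each library sums to 1000000, and 98.9% of positive values are not whole numbers. For the ovulation window the authors deposited estimated counts (18.3% not whole, tolerance 1e-06), which were rounded. The number of reads behind TPM is unknown. None of the 44 libraries is numbered as maturation control replicate 4, and the column of control replicate 6 differed from its title by 1 letter.

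TPM were tested with limma 3.58.1 in R 4.3.3 on log2(TPM + 1), with trend and robust fitting, for genes averaging 1 TPM or more. Fold changes on this scale understate low genes. Counts were tested with edgeR 4.0.16 (filterByExpr, TMM, robust quasi-likelihood). CPM are TMM-normalized. The difference between windows was the limma effect on log2(CPM + 1) minus that on log2(TPM + 1), with Satterthwaite's degrees of freedom. Adjustment was by Benjamini-Hochberg over all genes tested, with calls at an adjusted p under 0.05. The tests were checked on simulated data. Alternatives were other pseudocounts, filters, size factors, DESeq2 1.42.0, covariates, a replicate block and leaving out libraries.

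The members and the lists of other genes were chosen with earlier results of these data known. Values in full are given for called members that moved by 1 or more on the log2 scale in either window, and for Atf4 and Ddit3. From each further list, at most the 2 higher and 2 lower genes with the smallest p were named, and some genes of these lists are not reported here. Promoter windows come from RefSeq, and gene positions are those of the maturation table, whose starts and ends match GENCODE M21 (GRCm38) for 37 of 37 members. For the ovulation window, 17 of 37 starts match.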

Additional observations from a re-analysis of the deposited data

Results flagged for a closer look

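Single libraries stood apart from the others of their group in 4 of 38 sets of 10 maturation PFNA libraries searched, where chance gives about 1 in 20. Atf4 was 1516 TPM in replicate 5, with the next library at 1171 TPM. Ddit4 was 538 TPM in replicate 2, with the next at 319 TPM. Slc7a11 was 0.225 TPM in replicate 10, with the next at 0.146 TPM. The summed oocyte markers were 595 TPM in replicate 10, with the next at 264 TPM.

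The PFNA effect differed between the windows by the test of the difference in 29 members, given here as the log2 effect in the ovulation window minus that in the maturation window. Among signalling factors, serine enzymes and other genes with the higher effect in the ovulation window, it was 3.42 in Gdf15, 3.05 in Cbs, 2.56 in Chac1, 2.37 in Pycr1, 2.13 in Pck2, 1.81 in Ddit3, 1.68 in Slc7a5, 1.67 in Shmt2, 1.62 in Aldh18a1, 1.59 in Trib3 and 1.55 in Ppp1r15a. It was 1.47 in Mthfd2, 1.46 in Psph, 1.43 in Slc6a9, 1.32 in Slc1a4, 1.19 in Slc7a3, 1.13 in Phgdh, 0.75 in Stc2, 0.72 in Cebpg, 0.69 in Asns, 0.56 in Sesn2 and 0.54 in Slc3a2. With the lower effect in the ovulation window, it was -2.3 in Ddit4, -1.67 in Slc1a5, -0.96 in Gpt2, -0.69 in Atf5, -0.56 in Cth, -0.55 in Vldlr and -0.39 in Slc38a2. With a pseudocount of 0.1 the calls of Cth (-0.25) and Slc7a3 (0.89) were lost. Gdf15 passed the ovulation filter through its PFNA libraries, and Cth the maturation filter through its controls, so their differences are a description.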

How the results depend on the processing

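With the summed oocyte markers as a covariate, 655 genes and 9 members (all 9 higher) were called in the maturation window by limma, in place of 4030 and 15. The cause was not tested, and the covariate largely went with exposure in that window, so the fit cannot separate the 2. Under the other alternatives the counts of called genes and members stayed within 1.5 times, and without 1 library at a time they ran from 3586 to 4588 genes (14 to 17 members) in the maturation window and from 9654 to 10029 genes (34 to 35 members) in the ovulation window. Replicate numbers did not pair the libraries (9 and 11 pairs, correlations of -0.138 to 0.168 and of -0.193 to 0.073), and with the replicate block 2891 genes and 14 members were called in the maturation window and 9298 genes and 34 members in the ovulation window. Under the block the Fgf21 call was lost (0.92, limma adjusted p = 0.145), and 2 uncalled values changed sign, Stc2 to -0.027 and Vldlr to -0.14. The other sign changes were all of differences that had not passed. In the maturation window they were Atf4 (-0.029) and Psph (-0.018) with median-ratio size factors, Atf4 (-0.021) and Psph (-0.080) without PFNA replicates 1 and 2, Aldh18a1 (0.033) and Slc6a9 (0.013) with rescaled TPM, and Ppp1r15a (-0.049), Sesn2 (0.023), Aldh18a1 (0.21), Gpt2 (0.084) and Vldlr (-0.11) with the oocyte covariate. In the ovulation window Atf4 was -0.021 without a filter. Between windows Atf4 was 0.055 with median-ratio factors and 0.022 without PFNA replicates 1 and 2, and Jdp2 was -0.031 with a pseudocount of 0.1, under which the calls of Cth (-0.25) and Slc7a3 (0.89) were lost. Leaving out 1 library, values that crossed 0 ran from -0.054 to 0.037 (Atf4), -0.055 to 0.085 (Psph), -0.062 to 0.019 (Aldh18a1), -0.11 to 0.044 (Gpt2), -0.048 to 0.10 (Stc2) and -0.055 to 0.11 (Vldlr) in the maturation window, and from -0.042 to 0.044 (Atf4) in the ovulation window. The depth behind TPM is unknown, which limits what can be said of Slc7a11 and Fgf21 in the maturation window.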
